A study of Mus musculus with 16 samples.

Results

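Chemokines are small secreted proteins that draw white blood cells into tissues, and 10 of them known from the gut and from tumours were followed here across carcinoma, adenoma and WT epithelium of the mouse ileum. The 10 were Ccl25, Cxcl1, Cxcl2, Cxcl5, Cxcl9, Cxcl10, Cxcl12, Ccl2, Ccl5 and Ccl20, and their probe sets were those annotated with no other gene symbol. 9 of the 10 had such a probe set, 12 probe sets in all among 10833 with a single symbol, and Ccl20 is not analysed here. Their signals came from amplified RNA of laser-captured ileal epithelial cells, read on an Affymetrix mouse array. The arrays fell into 5 labelled carcinoma (an invasive tumour), 5 labelled adenoma (a benign tumour) and 6 labelled WT, and all 16 carry the same unexplained title prefix. Genotype, strain, age, the tumour model, the prefix and the choice of cells for capture were not given in the sources used here. No label says which animal an array came from, so if arrays of a group shared an animal, every p-value below is too small.

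Chemokines bind G protein-coupled receptors on leukocytes and guide them up a concentration gradient. Cxcl1, Cxcl2 and Cxcl5 act through Cxcr2 and attract neutrophils, Ccl2 acts through Ccr2 on monocytes, Cxcl9 and Cxcl10 are induced by interferon and act through Cxcr3 on T cells, and Ccl5 attracts T cells and other leukocytes. Ccl25 is made by the epithelium of the small intestine and draws Ccr9-bearing lymphocytes there, whereas Cxcl12 comes mainly from stromal and endothelial cells and acts through Cxcr4.

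Promoter sequences of 4 of these genes are printed. Below, Cxcl1 and Cxcl2 were called higher in both tumours, Ccl25 was called lower in both, and Cxcl10 was near the floor and not called. No link between these changes and the printed sequences was tested. They come from RefSeq with the mouse assembly GRCm38.p6, are written 5′ to 3′ on the strand of the gene, and lie entirely upstream of the annotated start. Cxcl1 lies at chr5:90891125-90891244 (plus strand), Cxcl2 at chr5:90903779-90903898 (plus strand), Cxcl10 at chr5:92349000-92349119 (minus strand) and Ccl25 at chr8:4349468-4349587 (plus strand, at the start with the higher coordinate of 2). Capitals mark matches to GGGA, any 2 bases and TTCC, the form of a kappaB site bound by NF-kB, or to GAAA, any 2 bases and GAAA, the form of an interferon-stimulated response element.
Cxcl1: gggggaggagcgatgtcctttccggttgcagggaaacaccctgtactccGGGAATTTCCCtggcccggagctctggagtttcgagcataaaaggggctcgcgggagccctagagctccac
Cxcl2: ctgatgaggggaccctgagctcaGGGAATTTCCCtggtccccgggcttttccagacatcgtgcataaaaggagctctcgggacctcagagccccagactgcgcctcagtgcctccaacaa
Cxcl10: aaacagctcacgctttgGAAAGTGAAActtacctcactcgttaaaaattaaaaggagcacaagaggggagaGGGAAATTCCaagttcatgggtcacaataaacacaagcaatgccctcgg
Ccl25: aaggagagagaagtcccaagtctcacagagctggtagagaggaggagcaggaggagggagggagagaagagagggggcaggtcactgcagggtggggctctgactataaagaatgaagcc

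The search covered both strands of 300 bases around each start, 250 before it and 50 from it on. Of the 10 genes, 7 had an entry in the promoter table: Cxcl1, Cxcl2, Cxcl9, Cxcl10, Cxcl12, Ccl20 and Ccl25. The kappaB letters matched in 482 of 32851 promoters (1.47%) and the interferon element in 1131 (3.44%). In Cxcl1 the kappaB match began 71 bases before the start, and in Cxcl2 it began 97 bases before it. In both genes the letters matched on both strands in overlapping positions, because the stretch is nearly a palindrome. The longest stretch that the promoters of Cxcl1 and Cxcl2 shared was GGGAATTTCCCTGG, of 14 bases, which holds that match. In Cxcl10 a kappaB match began 159 bases before the start and an interferon element 213 bases before it, with no overlap between them. These letters did not occur in the windows of Cxcl9, Cxcl12, Ccl20 or either start of Ccl25. A match is a description of letters and was not tested as a binding site.

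All signals below are the deposited intensities, with arrays numbered within their group. Differences are on the log2 scale after values under the 25th percentile of all values (46.9) were raised to that floor, and are given ± standard error (SE). A gene was called when its limma p-value, adjusted over the 7455 genes tested of 8251, was under 0.05. The mean log2 signal of transcripts added to every hybridisation was 12.23 ± 0.50 on carcinoma arrays (SD, n = 5), 12.24 ± 0.82 on adenoma arrays (SD, n = 5) and 13.74 ± 1.0 on WT arrays (SD, n = 6). WT arrays 1, 2, 4 and 5 lay above every tumour array in that measure, and its differences from WT had two-sided exact permutation p = 0.026 for carcinoma and p = 0.0346 for adenoma, 0.0519 for both after adjustment over the 3 group pairs. The log2 ratio of 3′ to 5′ Gapdh signal, a sign of RNA length, was 5.70 ± 0.58 on carcinoma arrays, 5.82 ± 0.24 on adenoma arrays and 4.52 ± 0.39 on WT arrays (SD, exact permutation adjusted p = 0.013 for both tumour groups). Over all genes the median difference was -0.14 for both tumour groups against WT. With quantile normalization it was -0.01 for carcinoma and -0.02 for adenoma, and with array medians aligned 0.15 and 0.12. The share of called genes that were higher was 45.9% in carcinoma and 48.6% in adenoma as deposited, 58.8% and 62.6% with quantile normalization, and 73.7% and 75.8% with medians aligned. Every chemokine called below kept its direction under both of those scalings.

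In carcinoma 4 of the 9 chemokines rose above WT, Cxcl1, Cxcl2, Cxcl5 and Ccl2, and 2 fell, Ccl25 and Ccl5. In adenoma 2 rose, Cxcl1 and Cxcl2, and 3 fell, Ccl25, Ccl5 and Cxcl12. Over all genes tested 9.05% were called in carcinoma against WT (4.16% higher and 4.9% lower) and 8.28% in adenoma against WT (4.02% higher and 4.25% lower). Signals of carcinoma and WT arrays did not overlap for Cxcl1, Cxcl2, Cxcl5, Ccl2 and Ccl25, where 3.13% of all genes lay higher in this way and 3.41% lower. For adenoma and WT arrays the same held for Cxcl1, Ccl2 and Ccl25, against 3.06% of all genes higher and 2.8% lower. The median difference of the 9 was -0.01 in carcinoma and 0.04 in adenoma, with members on both sides of 0. Both comparisons use the same 6 WT arrays, so they are not independent of each other.

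**Figure D1:**
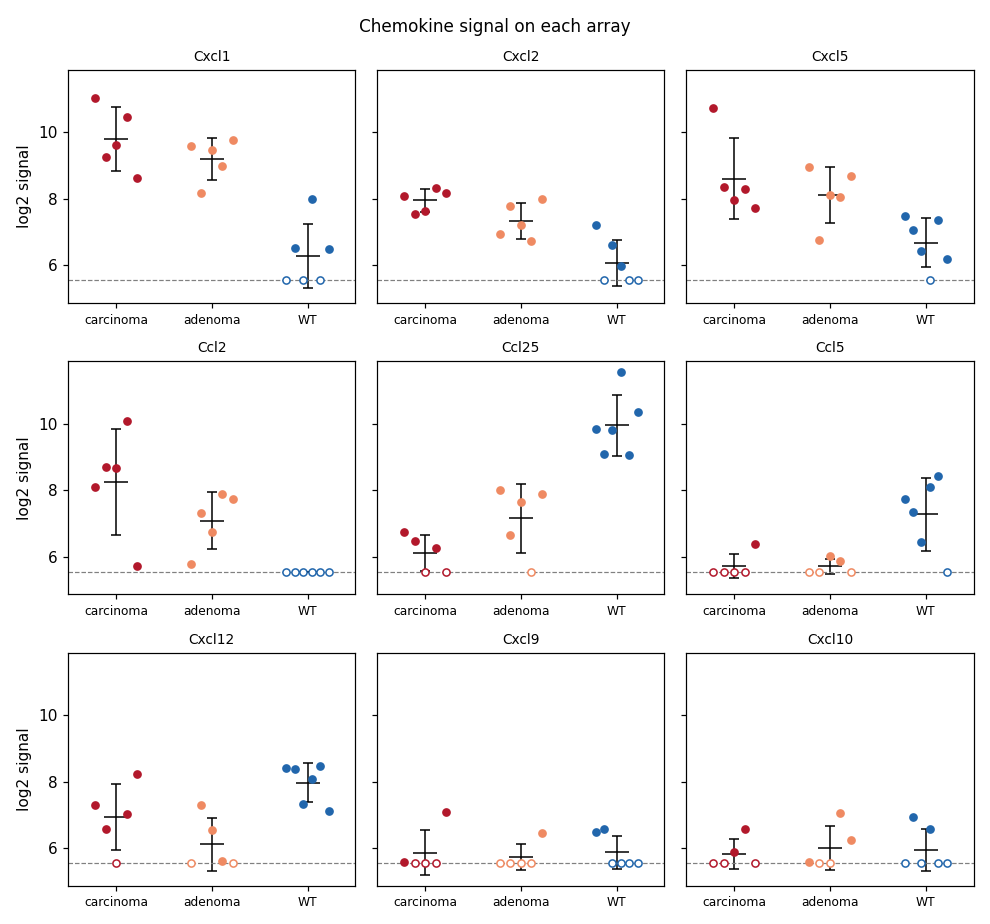
Log2 signal of 9 chemokines on each array, with carcinoma, adenoma and WT arrays from left to right in each panel. Signals under the floor of 46.9 (dashed line) are drawn at the floor. Filled points had signals above the floor and open points signals at or under it. Bars show the mean ± SD of the floored log2 values. Cxcl1 and Ccl2 lie higher, and Ccl25 lower, on all tumour arrays than on any WT array.

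The neutrophil attractant Cxcl1 rose in both tumours. Its signal was 2078, 613, 789, 1399.9 and 392 on carcinoma arrays 1 to 5, 777, 289, 701, 504 and 877 on adenoma arrays 1 to 5, and 5.7 to 252 on WT arrays with a median of 54.25. Every tumour array lay above every WT array. The mean log2 signal was 9.79 ± 0.95 in carcinoma (SD, n = 5), 9.20 ± 0.64 in adenoma (SD, n = 5) and 6.27 ± 0.96 in WT (SD, n = 6). Cxcl1 was 11.5-fold higher in carcinoma than in WT (log2 difference 3.52 ± 0.48 SE, limma adjusted p = 7.98e-05). In adenoma it was 7.59-fold higher (2.93 ± 0.48 SE, adjusted p = 0.000602). Because 3 of the 6 WT arrays were at the floor, these folds understate the difference. A further Cxcl1 probe set gave weaker differences. That probe set gave 357, 169.6, 181, 254 and 22 on carcinoma arrays, 223, 107, 31.9, 215 and 294 on adenoma arrays, and 23.7 to 134 on WT arrays with a median of 47.65. Its groups overlapped, through carcinoma 5, adenoma 2 and adenoma 3. Fitted alone, it differed by 1.48 ± 0.50 SE in carcinoma (adjusted p = 0.0775) and by 1.30 ± 0.50 SE in adenoma (adjusted p = 0.129), where 8.42% and 7.72% of single probe sets were called. With the mean of both probe sets the differences were 2.5 in carcinoma (adjusted p = 0.00134) and 2.11 in adenoma (adjusted p = 0.00597).

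Cxcl2, a close relative of Cxcl1 that acts on the same receptor, rose in both tumours as well. It gave 273, 188, 198, 318 and 286 on carcinoma arrays, 124, 221, 147, 105 and 254 on adenoma arrays, and 21.5 to 149 on WT arrays with a median of 42.8. Carcinoma arrays lay above all WT arrays, whereas WT array 1, at 149, lay within the adenoma range. Cxcl2 was 3.67-fold higher in carcinoma than in WT (1.87 ± 0.34 SE, adjusted p = 0.00117) and 2.39-fold higher in adenoma (1.25 ± 0.34 SE, adjusted p = 0.0255). The adenoma call was lost without WT 2 (1.17, adjusted p = 0.0552), adenoma 2 (1.15, adjusted p = 0.073) or adenoma 5 (1.08, adjusted p = 0.0852), and with a floor at the 40th percentile the difference was 0.46 (adjusted p = 0.233). It was also lost with the replicate number as a block (1.15, adjusted p = 0.069), in a fit of only those 2 groups (1.20, adjusted p = 0.0559), with the added-transcript signal in the fit (1.17, adjusted p = 0.142) and without WT 1, 2, 4 and 5 (1.33, adjusted p = 0.134). With the Gapdh ratio in the fit the carcinoma difference was 2.16 (adjusted p = 0.0656) and the adenoma difference 1.57 (adjusted p = 0.341).

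Cxcl5, a further neutrophil attractant, rose in carcinoma. Its signal was 1686, 326, 248, 311 and 209.8 on carcinoma arrays, 495, 108, 278, 267 and 409 on adenoma arrays, and 34.8 to 178 on WT arrays with a median of 110.45. Carcinoma 1 was far above the other carcinoma arrays, all of which still exceeded every WT array, and adenoma 2 lay within the WT range. The difference was 1.92 ± 0.51 SE in carcinoma (3.80-fold, adjusted p = 0.022) and 1.43 ± 0.51 SE in adenoma (adjusted p = 0.0939). The carcinoma call was lost without carcinoma 1 (1.38, adjusted p = 0.0554) or without WT 4 (1.70, adjusted p = 0.0513). It was also lost with the added-transcript signal in the fit (1.99, adjusted p = 0.111), with the Gapdh ratio in it (2.69, adjusted p = 0.14) and without WT 1, 2, 4 and 5 (2.29, adjusted p = 0.114). In adenoma Cxcl5 passed the threshold without adenoma 2 (1.77, adjusted p = 0.0487) or without carcinoma 1 (1.42, adjusted p = 0.032), and also with quantile normalization (1.63, adjusted p = 0.0495) or array weights (1.63, adjusted p = 0.0355).

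Ccl2, the monocyte attractant, was under the floor on every WT array and above it on every tumour array. It gave 273, 417, 409.6, 1075 and 52.7 on carcinoma arrays, 54.7, 159, 107, 235 and 212 on adenoma arrays, and 8.3 to 37.9 on WT arrays with a median of 18.4. The tumour arrays spread widely, and carcinoma 5 and adenoma 1 lay just above the floor. Ccl2 was at least 6.50-fold higher in carcinoma than in WT (2.70 ± 0.54 SE, adjusted p = 0.0029). In adenoma it was at least 2.90-fold higher, and that difference missed the threshold (1.54 ± 0.54 SE, adjusted p = 0.0892). Without carcinoma 5 the carcinoma difference was 3.34, and the adenoma difference, at 1.54, passed (adjusted p = 0.0149) with a smaller SE of 0.37. With a floor at the 10th percentile the differences were 3.78 in carcinoma (adjusted p = 0.000623) and 2.62 in adenoma (adjusted p = 0.0123), and with a floor at the 40th percentile 1.65 in carcinoma (adjusted p = 0.00742) and 0.49 in adenoma (adjusted p = 0.447). A fit of only adenoma and WT gave 1.43 (adjusted p = 0.02). Without the 4 WT arrays of high added-transcript signal the carcinoma difference was 2.86 (adjusted p = 0.0978).

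Markers of leukocytes and stromal cells were read beside these ligands. For neutrophils 12 of 14 listed markers were on the array, and their summed signal was 1442 to 2372 on carcinoma arrays, 1484 to 2537 on adenoma arrays and 1407 to 2983 on WT arrays. The integrin chain Itgam was at the floor on all arrays of all 3 groups, the collagenase Mmp8 and the receptor Cxcr2 on all tumour arrays, and S100a9 and Prtn3 on all adenoma arrays. No neutrophil marker was called higher by limma in either tumour (of 9 tested, 4 in carcinoma and 3 in adenoma had an unadjusted p under 0.05 in some direction, as had 23.9% and 23.0% of all genes), and Cxcr2 in both tumours and Camp in adenoma were called lower. For macrophages all 12 listed markers were on the array, with sums of 9938 to 16001 in carcinoma, 7195 to 13959 in adenoma and 5667 to 20567 in WT, and none was called in either direction in limma (3 had an unadjusted p under 0.05 in each tumour comparison). Adgre1, which encodes the F4/80 antigen, was at the floor on all adenoma arrays. Summed mast cell markers were higher in both tumours than in WT, at 1905 to 3935 in carcinoma, 3211 to 8381 in adenoma and 458 to 1331 in WT (exact permutation p = 0.00433 for each tumour group, adjusted 0.00649). All 9 listed mast cell markers were on the array, with Mcpt4 and Tpsab1 at the floor on all carcinoma and all WT arrays, and Cpa3, Mcpt1 and Mcpt2 were called higher in both tumours. The mast cell sum was lower in carcinoma than in adenoma, with a log2 difference of -1.04 (exact permutation adjusted p = 0.0317). The summed signal of 12 fibroblast and matrix markers was 10025 to 18115 in carcinoma, 7549 to 11194 in adenoma and 6026 to 12414 in WT, higher in carcinoma (exact permutation p = 0.013, adjusted 0.039), with Pdgfrb and Mgp at the floor on all adenoma arrays. The matrix genes Col1a1 and Dcn were called higher and Col6a1 lower in carcinoma. The part of these cell types in the chemokine signals was not tested.

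Ccl25, the gut-homing chemokine, fell in both tumours. Its signal was 108, 88.0, 32.7, 76.4 and 11.2 on carcinoma arrays, 256, 101, 202, 29.1 and 239 on adenoma arrays, and 534 to 3032 on WT arrays with a median of 906. The highest tumour array, at 256, lay below the lowest WT array, at 534. The mean log2 signal was 6.11 ± 0.54 in carcinoma (SD, n = 5), 7.15 ± 1.04 in adenoma (SD, n = 5) and 9.95 ± 0.93 in WT (SD, n = 6). Ccl25 was 14.3-fold lower in carcinoma than in WT (-3.84 ± 0.48 SE, adjusted p = 3.32e-05) and 6.95-fold lower in adenoma (-2.80 ± 0.48 SE, adjusted p = 0.000879). In bulk captures such as these, fewer cells of a type and less RNA per cell cannot be told apart. The summed signal of 13 ileal epithelial markers, all on the array, was 45339 to 108520 in carcinoma, 62531 to 93554 in adenoma and 74986 to 176381 in WT (exact permutation p = 0.0693 for carcinoma and 0.0779 for adenoma, adjusted 0.117 for both). The ileal bile acid carrier Slc10a2 was at the floor on all adenoma arrays, and no other marker of that list was at the floor throughout a group. Of the 13, 2 were called lower in carcinoma, the fatty acid binding protein Fabp2 and the keratin Krt20, against 4.9% of all genes. In adenoma 2 were called lower, Fabp2 and the transcription factor Cdx1, against 4.25% of all genes. None was called higher, and the median differences were -0.38 and -0.40, against -0.14 over all genes in both. The part of epithelial cell content in the Ccl25 signal was not tested. With the Gapdh ratio in the fit the adenoma difference of Ccl25 was -2.83 (adjusted p = 0.162), and with the added-transcript signal as a covariate the differences were -4.74 in carcinoma and -3.70 in adenoma, both called.

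Ccl5, which attracts T cells and is itself made by T and NK cells, fell in both tumours. It gave 34.0, 19.6, 39.6, 19.2 and 82.6 on carcinoma arrays, 25.8, 44.4, 64.9, 59.0 and 17.2 on adenoma arrays, and 28.8 to 348 on WT arrays with a median of 187.5. Most tumour arrays were under the floor, and the groups overlapped through WT 6, the lowest WT array. The difference was -1.56 ± 0.40 SE in carcinoma (2.94-fold lower, adjusted p = 0.0197) and -1.56 ± 0.40 SE in adenoma (2.95-fold lower, adjusted p = 0.0217). Without WT 1, 2, 4 and 5 the difference was -0.33 in carcinoma (adjusted p = 0.791) and -0.29 in adenoma (adjusted p = 0.815). The WT arrays left in that fit were WT 3 and WT 6. With the added-transcript signal as a covariate the differences were -0.68 (adjusted p = 0.444) and -0.69 (adjusted p = 0.41). The part of that signal in the fall of Ccl5 was not tested. With quantile normalization the difference was -1.25 in carcinoma (adjusted p = 0.0543) and -1.29 in adenoma (adjusted p = 0.0507), and with the Gapdh ratio in the fit -1.65 (adjusted p = 0.327) and -1.66 (adjusted p = 0.435). In carcinoma a fit of only those 2 groups gave -1.51 (adjusted p = 0.0516), and in adenoma a floor at the 10th percentile gave -1.92 (adjusted p = 0.0612). The adenoma call was also lost without WT 4 (-1.40, adjusted p = 0.0505), adenoma 1 (-1.51, adjusted p = 0.0512), adenoma 2 (-1.52, adjusted p = 0.0523) or adenoma 5 (-1.52, adjusted p = 0.0539). Of 17 listed T and NK cell markers 14 were on the array, and their summed signal was 941 to 3687 in carcinoma, 1034 to 2749 in adenoma and 1340 to 3369 in WT (exact permutation p = 0.26 for carcinoma and 0.571 for adenoma, adjusted 0.571 for both). The T cell receptor subunits Cd3e and Cd3g were at the floor on all tumour arrays, as were Cd8a on all carcinoma and Cd8b1 on all adenoma arrays, while Il2rb and Prf1 were called lower in both tumours. The part of T and NK cells in the Ccl5 signal was not tested.

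Cxcl12, the stromal chemokine, was read by 3 probe sets that disagreed in size. The one used in the fit gave 158, 94.9, 24.1, 131 and 303 on carcinoma arrays, 45.1, 159, 92.7, 49.1 and 28.8 on adenoma arrays, and 139.5 to 355 on WT arrays with a median of 303. Carcinoma 1, carcinoma 5 and adenoma 2 lay within the WT range. The difference was -1.03 ± 0.44 SE in carcinoma (adjusted p = 0.154) and -1.86 ± 0.44 SE in adenoma (3.62-fold lower, adjusted p = 0.0123). In adenoma it was -1.12 with the added-transcript signal in the fit (adjusted p = 0.247) and -2.28 with the Gapdh ratio in it (adjusted p = 0.257). The next probe set gave 9.3, 39.2, 24.3, 26.5 and 20.5 on carcinoma arrays, 41.7, 58.2, 7.0, 5.4 and 74.7 on adenoma arrays, and 108 to 339 on WT arrays with a median of 223. On this probe set no tumour array reached any WT array, and all carcinoma arrays were under the floor. Fitted alone, it was at least 4.23-fold lower in carcinoma (-2.08 ± 0.29 SE) and 3.69-fold lower in adenoma (-1.88 ± 0.29 SE), and both differences were called. The last gave 46.5, 112, 124, 136 and 135 on carcinoma arrays, 39.3, 149, 60.4, 211 and 148 on adenoma arrays, and 28.8 to 265 on WT arrays with a median of 170.2. Its groups overlapped, with differences of -0.50 ± 0.46 SE in carcinoma (adjusted p = 0.539) and -0.47 ± 0.46 SE in adenoma (adjusted p = 0.563). Its name marks it as a set whose probes may be shared with other sequences. Without WT 5, or without WT 1, 2, 4 and 5, this last probe set had the highest mean and entered the fit, and the adenoma difference was then -0.81 (adjusted p = 0.246) and -0.65 (adjusted p = 0.705). With the mean of the probe sets the carcinoma difference was -1.20 (adjusted p = 0.00903).

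**Figure D2:**
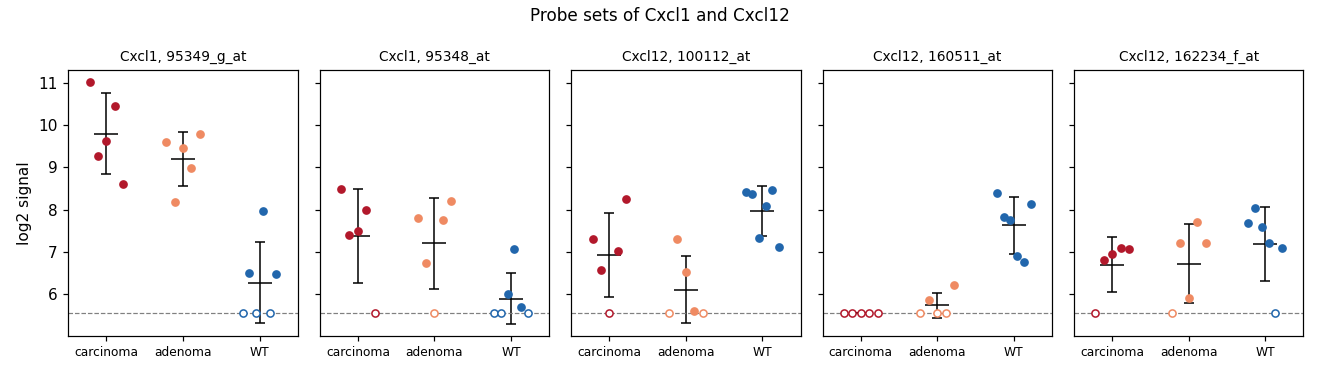
Log2 signal on each array of the probe sets of Cxcl1 and Cxcl12, the members with more than 1, with carcinoma, adenoma and WT arrays from left to right. Open points had signals at or under the floor of 46.9 (dashed line) and are drawn at the floor. For Cxcl12 the groups separate fully on only 1 of the 3 probe sets.

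Smooth muscle, B lineage and endothelial markers were read beside Cxcl12. All 7 smooth muscle markers were on the array, none at the floor throughout a group, and summed to 2316 to 3190 in carcinoma, 2111 to 4114 in adenoma and 4546 to 8081 in WT. Of 7 B and plasma cell markers 6 were on the array and summed to 820.0 to 1479 in carcinoma, 636 to 946 in adenoma and 1563 to 2477 in WT, with Cd22 at the floor on all carcinoma arrays. Both sums were lower in each tumour group than in WT (exact permutation p = 0.00433, adjusted 0.00649 in all 4 comparisons). All 10 endothelial markers were on the array, with Icam2 at the floor on all tumour arrays, and summed to 3954 to 11443 in carcinoma, 4562 to 10943 in adenoma and 3144 to 6606 in WT (exact permutation p = 0.0476 for carcinoma and 0.16 for adenoma, adjusted 0.143 and 0.24). Of single markers, Acta2 and Myh11 of smooth muscle and Jchain of plasma cells were called lower in both tumours, Cd79b and Ms4a1 of B cells lower in adenoma, and the endothelial cadherin Cdh5 higher in adenoma. The part of these cells in the Cxcl12 signal was not tested.

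The interferon-induced ligands Cxcl9 and Cxcl10 were near the floor in all 3 groups, and neither was called in any comparison. Cxcl9 gave 48.4, 3.5, 9.8, 5.2 and 136 on carcinoma arrays, 19.0, 8.1, 5.6, 17.1 and 87.0 on adenoma arrays, and 9.5 to 94.9 on WT arrays with a median of 27.4. It was above the floor on 2 carcinoma, 1 adenoma and 2 WT arrays, the smallest number that let a gene be tested. Cxcl10 gave 11.7, 43.9, 59.2, 95.9 and 9.5 on carcinoma arrays, 47.9, 10.3, 8.1, 133 and 76.0 on adenoma arrays, and 10.8 to 123 on WT arrays with a median of 29.95. It was above the floor on 2 carcinoma, 3 adenoma and 2 WT arrays. The differences of Cxcl9 were -0.01 ± 0.33 SE in carcinoma (adjusted p = 0.994) and -0.15 ± 0.33 SE in adenoma (adjusted p = 0.826). Those of Cxcl10 were -0.13 ± 0.35 SE in carcinoma (adjusted p = 0.851) and 0.04 ± 0.35 SE in adenoma (adjusted p = 0.957). At this signal a difference hidden below the floor was not detectable.

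**Figure D3:**
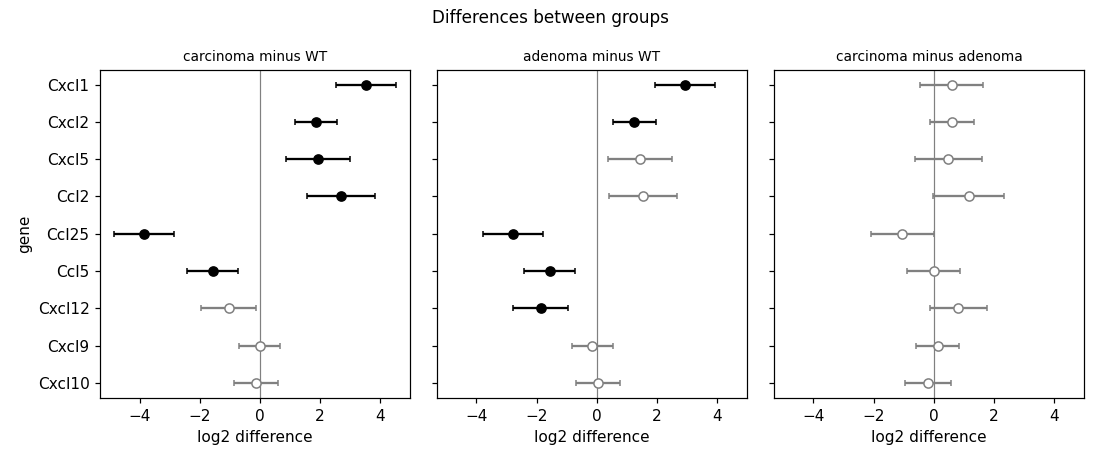
Log2 differences of the 9 chemokines in carcinoma against WT, adenoma against WT and carcinoma against adenoma, with 95% confidence intervals. Filled black points are called by limma (adjusted over all genes tested) and open grey points are not. Cxcl1, Cxcl2, Cxcl5 and Ccl2 lie to the right of 0, and Ccl25, Ccl5 and Cxcl12 to the left, in both comparisons with WT. Cxcl9 and Cxcl10 lie near 0 there, and no chemokine is called between the tumours.

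Between carcinoma and adenoma, none of the 9 chemokines was called in limma, where 0.0268% of all genes were, and 1 of the 9, Ccl25, had an unadjusted p under 0.05, as had 2.48% of all genes. Ccl25 was lower in carcinoma by its mean, with a difference of -1.04 ± 0.50 SE (95% interval -2.08 to -0.00015, limma adjusted p = 1). Ccl2 differed by 1.17 ± 0.56 SE (95% interval -0.01 to 2.34). For the neutrophil attractants the differences were 0.60 ± 0.50 SE for Cxcl1 (95% interval -0.45 to 1.64), 0.62 ± 0.35 SE for Cxcl2 (-0.11 to 1.35) and 0.49 ± 0.53 SE for Cxcl5 (-0.62 to 1.61). Cxcl12 differed by 0.83 ± 0.46 SE (-0.13 to 1.79) on the probe set used in the fit. Its further probe sets, fitted alone, gave -0.20 ± 0.30 SE and -0.03 ± 0.48 SE, and the mean of the probe sets gave 0.20. Ccl5 differed by 0.00 ± 0.42 SE (-0.88 to 0.89), Cxcl9 by 0.14 ± 0.34 SE (-0.58 to 0.85) and Cxcl10 by -0.17 ± 0.37 SE (-0.94 to 0.59). Signals of the tumour groups overlapped for every one of the 9, where 0.174% of all genes lay higher in carcinoma with no overlap and 0.429% lower. Fitted singly, none of their 12 probe sets was called, against 0.0429% of all probe sets. Their median difference was 0.49, against 0.01 over all genes. By mean log2 signal, Cxcl1, Cxcl2, Cxcl5 and Ccl2 stood in the order carcinoma, adenoma, WT, and Ccl25 in the reverse order, and carcinoma and adenoma were not called apart for any of them. The intervals of Cxcl1, Cxcl2, Cxcl5, Ccl2 and the fitted Cxcl12 probe set reach from below 0 to values above 1. Equal levels in the tumours are therefore not shown.

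Within a tumour group the ligands did not share 1 ranking of arrays. Carcinoma 5 had the lowest signal of the carcinoma arrays for Cxcl1, Cxcl5 and Ccl2, and the highest for Ccl5, Cxcl9 and the fitted Cxcl12 probe set. Its deposited signal was also the lowest for Cxcl10 and Ccl25, where other carcinoma arrays were under the floor too. On the further Cxcl12 probe sets the highest carcinoma arrays were carcinoma 2, at 39.2 and under the floor, and carcinoma 4, at 136. Carcinoma 1 had the highest Cxcl1, Cxcl5 and Ccl25 of that group, and carcinoma 4 the highest Cxcl2 and Ccl2. Among adenoma arrays, adenoma 5 was highest for Cxcl1 and Cxcl2 and adenoma 1 for Cxcl5 and Ccl25. Adenoma 4 was lowest for Cxcl2 and Ccl25 and highest for Ccl2.

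The other chemokine ligands were read as a list. Of 31 listed, 16 were on the array and 13 were tested. None was called higher by limma, where 4.16% of all genes were in carcinoma and 4.02% in adenoma. In carcinoma 2 were called lower and in adenoma 1, against 4.9% and 4.25% of all genes. An unadjusted limma p under 0.05 in some direction was found for 6 and 4, against 23.9% and 23.0% of all genes. The median difference of the 13 was -0.32 in carcinoma and -0.45 in adenoma, against -0.14 over all genes in both. Ccl6, a myeloid chemokine, gave 688, 590.0, 432, 408 and 451 on carcinoma arrays, 398, 465, 634, 549 and 389.7 on adenoma arrays, and 890.0 to 1645 on WT arrays with a median of 1465. No tumour array reached a WT array, and Ccl6 was 2.60-fold lower in carcinoma (-1.38 ± 0.25 SE, adjusted p = 0.00124) and 2.73-fold lower in adenoma (-1.45 ± 0.25 SE, adjusted p = 0.000918). With the Gapdh ratio in the fit the adenoma difference of Ccl6 was -1.80 (adjusted p = 0.0567). Ccl8 spanned 47.1 to 161 in carcinoma, 22.7 to 234 in adenoma and 178 to 460.2 in WT. Its difference was -1.58 ± 0.45 SE in carcinoma (adjusted p = 0.033) and -1.44 ± 0.45 SE in adenoma (adjusted p = 0.0564). Leaving out 1 array ended the carcinoma call of Ccl8 where it was WT 2, WT 4, WT 5, carcinoma 1, carcinoma 4 or carcinoma 5 (differences -1.37 to -1.58, adjusted p between 0.0562 and 0.0906). In all, 14 of 30 alternatives ended it, such as aligned medians (-1.26, adjusted p = 0.0669), quantile normalization (-1.22, adjusted p = 0.0805), the 10th percentile floor (adjusted p = 0.089), no filter (adjusted p = 0.0552) and array weights (-1.19, adjusted p = 0.108). It was also lost with the added-transcript signal in the fit (-0.82, adjusted p = 0.467), the Gapdh ratio in it (-2.05, adjusted p = 0.242) and without WT 1, 2, 4 and 5 (-1.21, adjusted p = 0.503). Ccl7, a monocyte attractant, gave 166, 244, 135, 172 and 154 on carcinoma arrays and 37.5, 105, 69.5, 18.3 and 101 on adenoma arrays. These groups did not overlap, and Ccl7 differed by 1.29 ± 0.42 SE between the tumours (limma adjusted p = 1). Against WT, where it spanned 5.6 to 216, Ccl7 differed by 1.07 ± 0.40 SE in carcinoma (adjusted p = 0.103). Ccl9 differed from WT by 1.26 ± 0.55 SE in carcinoma and 0.19 ± 0.55 SE in adenoma (limma adjusted p = 0.169 and 0.87). Xcl1 differed by -0.97 ± 0.39 SE and -1.16 ± 0.39 SE (limma adjusted p = 0.135 and 0.0784). Ccl12 differed by -0.75 ± 0.30 SE and -0.66 ± 0.30 SE (limma adjusted p = 0.129 and 0.197).

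By gene order in RefSeq GRCm38.p6, several of the ligands lie in runs of neighbouring chemokine genes, and no ligand called higher was next to one called lower. Cxcl5, Ppbp, Pf4, Cxcl3, Cxcl15, Cxcl1 and Cxcl2 follow one another on chromosome 5, and of these Cxcl5, Pf4, Cxcl1 and Cxcl2 were tested, with Pf4, a platelet chemokine, not called. Ccl2, Ccl7, Ccl11, Ccl12, Ccl8 and Ccl1 follow one another on chromosome 11, where in carcinoma Ccl2 was called higher and Ccl8 lower. Further along chromosome 11, Ccl5, Ccl9, Ccl6, Ccl3 and Ccl4 are neighbours, of which Ccl5 and Ccl6 were called lower in both tumours and Ccl9 and Ccl3 were not called. Cxcl9 and Cxcl10 lie on chromosome 5 with Art3 between them, Cxcl12 on chromosome 6 and Ccl25 on chromosome 8.

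Among the receptors, the one shared by Cxcl1, Cxcl2 and Cxcl5 was lower where these ligands were higher. Cxcr2 spanned 7.3 to 42.1 on carcinoma arrays, 10.5 to 24.5 on adenoma arrays and 71.0 to 286 on WT arrays, so every tumour array was under the floor. It was at least 2.30-fold lower in each tumour (-1.20 ± 0.29 SE, adjusted p = 0.014 in carcinoma and 0.0159 in adenoma). With the added-transcript signal in the fit the difference was -0.82 in both (adjusted p = 0.238 and 0.219), with the Gapdh ratio in it -0.85 in carcinoma and -0.82 in adenoma (adjusted p = 0.522 and 0.641), and in fits of only those groups -1.13 and -1.10 (adjusted p = 0.0546 and 0.0662). Of 24 listed receptors 20 were on the array and 18 were tested, with a median difference of -0.42 in carcinoma and -0.35 in adenoma. Cxcr2 was the 1 called in each comparison with WT, against 9.05% of all genes in carcinoma and 8.28% in adenoma. Ccr9, the receptor of Ccl25, differed by -0.05 ± 0.31 SE in carcinoma and -0.24 ± 0.31 SE in adenoma, and was above the floor on 1 WT array. Ccr2, the receptor of Ccl2, differed by 0.00 ± 0.40 SE in carcinoma and -0.35 ± 0.40 SE in adenoma. Cxcr3 differed by -0.44 ± 0.42 SE and 0.04 ± 0.42 SE, and Cxcr4, under the floor on all WT arrays, by 0.21 ± 0.29 SE and 0.64 ± 0.29 SE (adjusted p = 0.202). None of these 4 receptors was called.

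Genes that induce or carry the inflammatory signal were read as a list. Of 21 listed genes of NF-kB and its inducing cytokines, 19 were on the array and 18 were tested. Their median difference was -0.04 in carcinoma and 0.09 in adenoma. In each tumour 1 gene was called higher and none lower, where 9.05% of all genes were called in carcinoma and 8.28% in adenoma. That gene was Il1r1, the receptor of interleukin 1. It gave 145, 189.9, 109.9, 164 and 100 on carcinoma arrays, 135, 114, 148, 13.6 and 113 on adenoma arrays, and 9.4 to 53.1 on WT arrays with a median of 32.2. Only adenoma 4 fell among the WT values. Il1r1 was 2.87-fold higher in carcinoma (1.52 ± 0.28 SE, adjusted p = 0.00157) and 2.17-fold higher in adenoma (1.12 ± 0.28 SE, adjusted p = 0.0184). The adenoma call was lost without adenoma 1 (1.01, adjusted p = 0.057), adenoma 3 (0.97, adjusted p = 0.0612) or adenoma 5 (1.08, adjusted p = 0.0504), and with a floor at the 40th percentile the differences were 0.33 in carcinoma (adjusted p = 0.287) and 0.13 in adenoma (adjusted p = 0.704). The Il1r1 calls in carcinoma and adenoma were also lost with the added-transcript signal in the fit (1.17, adjusted p = 0.0569, and 0.76, adjusted p = 0.231) and with the Gapdh ratio in it (1.76, adjusted p = 0.078, and 1.37, adjusted p = 0.32). Without WT 1, 2, 4 and 5 they were lost too (1.54, adjusted p = 0.095, and 1.11, adjusted p = 0.272), and in adenoma with the 10th percentile floor (1.46, adjusted p = 0.0922). Il1b, the ligand, was under the floor on all WT arrays and spanned 19.7 to 266 in carcinoma and 9.4 to 118 in adenoma, with a difference of 1.02 ± 0.38 SE in carcinoma (adjusted p = 0.108). The NF-kB subunit Rela differed by 0.52 ± 0.30 SE in carcinoma and 0.78 ± 0.30 SE in adenoma (adjusted p = 0.3 and 0.122). The subunits Relb and Rel had values below 0, at -1.14 ± 0.47 SE and -0.89 ± 0.43 SE in carcinoma (adjusted p = 0.14 and 0.22) and -0.54 ± 0.47 SE and -1.0 ± 0.43 SE in adenoma (adjusted p = 0.511 and 0.17).

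In the interferon-gamma list, which bears on Cxcl9 and Cxcl10, 14 genes were listed, 11 were on the array and 10 were tested. Their median difference was -0.09 in carcinoma and -0.06 in adenoma. 1 gene was called lower and none higher in each tumour, where 9.05% of all genes were called in carcinoma and 8.28% in adenoma. It was Irf8, a transcription factor of myeloid and lymphoid cells, which spanned 2288 to 4287 on carcinoma arrays, 2098 to 4791 on adenoma arrays and 5751 to 13550.5 on WT arrays. Irf8 was 2.49-fold lower in carcinoma (-1.32 ± 0.29 SE, adjusted p = 0.00633) and 2.57-fold lower in adenoma (-1.36 ± 0.29 SE, adjusted p = 0.00523). With the added-transcript signal in the fit the difference was -0.88 in carcinoma (adjusted p = 0.161) and -0.93 in adenoma (adjusted p = 0.129). Without WT 1, 2, 4 and 5 it was -1.06 in carcinoma (adjusted p = 0.185) and -1.10 in adenoma (adjusted p = 0.161), and with the Gapdh ratio in the fit -1.98 in adenoma (adjusted p = 0.061). Irf1, which interferon-gamma induces, differed by -0.48 ± 0.25 SE in carcinoma (adjusted p = 0.241) and -0.39 ± 0.25 SE in adenoma (adjusted p = 0.368). Socs3, an inhibitor of cytokine signalling, differed by 1.04 ± 0.34 SE in carcinoma (adjusted p = 0.0607) and 0.83 ± 0.34 SE in adenoma (adjusted p = 0.143). The receptor chains Ifngr1 and Ifngr2 were not called.

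**Figure D4:**
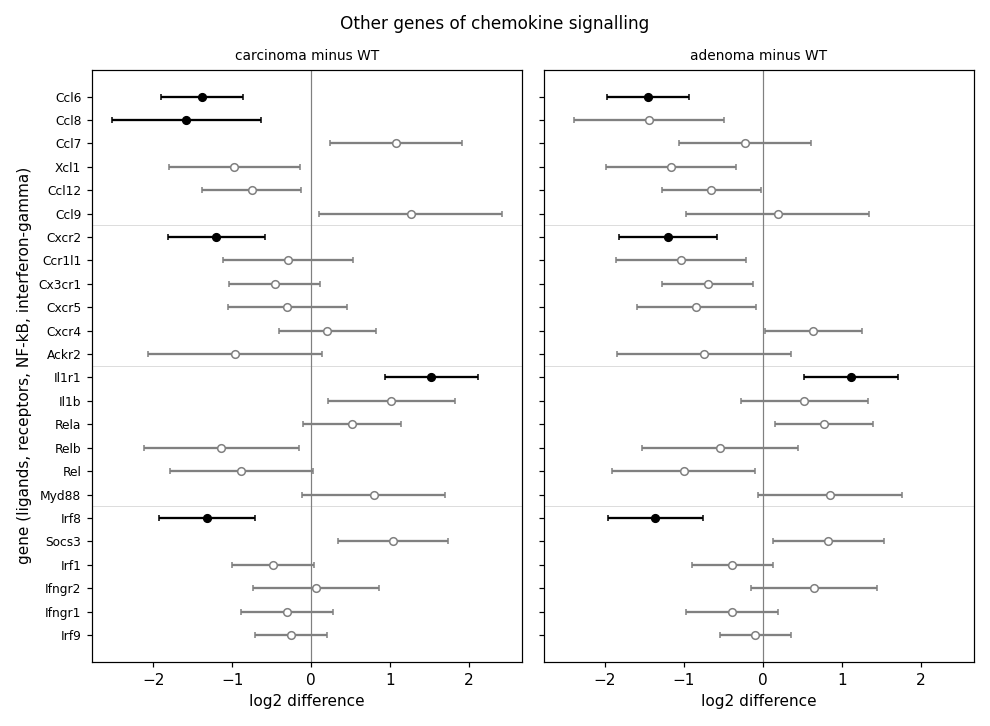
Log2 differences against WT, with 95% confidence intervals, of the named genes of the other ligands, the receptors, the NF-kB list and the interferon-gamma list in carcinoma and in adenoma. Filled black points are called by limma and open grey points are not. Ccl6, Cxcr2 and Irf8 are called lower and Il1r1 higher in both.

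Genes whose log2 signal ran most alike to 4 of the chemokines over the 16 arrays are given as a description, since all arrays share the contrast of tumour and WT. Ccl25 ran most like Slc51a, a subunit of the bile acid exporter of the ileum (Pearson r = 0.95), Slc7a9, a subunit of an amino acid carrier (0.94), and Enpep, a brush border peptidase (0.93). Cxcl1 ran most like Scarb2, a lysosomal membrane protein, Nek7, a kinase, and Prom1, a membrane glycoprotein, each at r = 0.95. Cxcl2 ran most like the tetraspanin Cd9 (r = 0.88), the matrix protein Npnt (0.87) and the actin regulator Eps8 (0.86). Ccl2 ran most like the cytokine Il1b (r = 0.88), the acute phase protein Saa3 (0.83) and Tpd52l1 (0.80).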

How the data were processed

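RNA of laser-captured mouse ileal epithelial cells was amplified, labelled and hybridised to Affymetrix MG_U74Av2 arrays, per the labels' protocols. The authors deposited 1 intensity per probe set and array on a linear scale for 12488 probe sets, with software not given in the sources used here. Array means with the outer 2% on either side trimmed off were 500.3 to 500.4, so the values were treated as scaled and left as they were. The median signal of an array was 126.8 to 234.2, and the number of arrays limits the precision. No arrays held identical values.

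Groups and replicate numbers came from the sample titles. Gene symbols came from the platform annotation. Control probe sets were left out, intensities were floored at the 25th percentile and put on the log2 scale, and a gene with several probe sets was read from its brightest by mean. Genes that exceeded the floor on 5 or more of 16 arrays were fitted in 3 groups with limma 3.58.1 (lmFit and eBayes, 13 residual degrees of freedom) in R 4.3.3, with two-sided tests and Benjamini-Hochberg adjustment over all genes of a comparison. The fit was tested on simulated data. Against a group wholly at the floor a fold is a lower bound of the estimate, computed against the floor, and its sampling error is that given by the SE. Control measures and marker sums were compared by two-sided exact permutation tests with scipy 1.17.1 in Python 3.11.15, adjusted over 3 group pairs. Figures used matplotlib 3.10.9.

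The members and gene lists were chosen with earlier results of these data known. All members were named, with up to 6 genes per pathway list of smallest p, and, for up to 4 members of smallest F-test p, the 3 genes of highest Pearson r. Markers were named where called against WT or at the floor throughout a group, and genes beside members for their place. Same-numbered arrays of different groups correlated between -0.27 and 0.40 in their deviations from the group means, and not every pair exceeded 0.1, so the numbers were not taken as pairs. Alternatives were other scalings, floors, filters and probe set rules, the replicate block, array weights, a variance trend, fits of only the 2 groups compared, control measures as covariates, WT arrays of high added-transcript signal left out, and each array left out in turn.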

Additional observations from a re-analysis of the deposited data

Results flagged for a closer look

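On the log2 scale of the deposited signals, without the floor, 1 array stood far from the rest of its group, in 1 of 27 groups of chemokine values, where chance marks about 1 in 20. Cxcl5 was 1686.4 on carcinoma 1, with the other carcinoma arrays between 209.8 and 326.4.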

How the results depend on the processing

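Over the alternatives, 686 of 768 values of the 27 member differences kept their direction and their side of the threshold, 35 lost a call, 8 gained one and 39 changed sign, and no member called in the main analysis changed sign. The number of members called was 6 in carcinoma against WT and 5 in adenoma against WT. In carcinoma it was 3 with the Gapdh ratio in the fit and 3 without the 4 WT arrays of high added-transcript signal. In adenoma these gave 1 and 2, the added-transcript signal as a covariate gave 2, and a floor at the 40th percentile gave 3. With single arrays left out the number was 5 to 6 in carcinoma, 3 to 6 in adenoma (3 without adenoma 5) and 0 between the tumours. With the replicate block it was 6, 4 and 0, and the block ended the adenoma call of Cxcl2 (1.15, adjusted p = 0.069) and no other member's. Over all genes, 675 were called in carcinoma against WT, against 382 with the added-transcript covariate, 100 with the Gapdh covariate and 210 without the 4 WT arrays. In adenoma 617 were called, against 398, 70 and 177 in these settings and 383 without adenoma 5. Between the tumours 2 were called, with 0 to 18 over the other settings. The causes were not tested.

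The differences below changed sign in some settings, and none of them was called in any setting. Cxcl9 in carcinoma was 0.31 with quantile normalization, 0.18 with medians aligned, 0.29 with the added-transcript covariate and -0.073 to 0.071 with arrays left out. Cxcl10 in carcinoma was 0.058, 0.013 and 0.38 in these first 3 settings, 0.42 with the Gapdh covariate, 0.35 without the 4 WT arrays and -0.32 to 0.075 with arrays left out. In adenoma Cxcl9 was 0.061 with quantile normalization and 0.15 with the added-transcript covariate. Cxcl10 there was -0.038 with the replicate block, -0.037 with array weights and -0.22 to 0.26 with arrays left out. Between the tumours Cxcl9 was -0.075 with array weights, and Ccl5 was -0.019 with medians aligned, -0.17 with a floor at the 10th percentile, -0.063 with array weights, -0.045 without the 4 WT arrays and -0.16 to 0.082 with arrays left out. With arrays left out, Cxcl5 was -0.037 to 0.71, Cxcl10 -0.36 to 0.091 and Cxcl12 -0.024 to 1.17 between the tumours. In the main fit Cxcl5 was 0.49 and Cxcl12 0.83. Cxcl5 changed sign without carcinoma 1, and Cxcl12 without WT 5, where another probe set entered the fit.

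With arrays left out, the added-transcript difference was -1.77 to -1.32 in carcinoma, -1.81 to -1.29 in adenoma and -0.22 to 0.30 between the tumours. The Gapdh ratio differed by 0.99 to 1.37 in carcinoma, 1.21 to 1.40 in adenoma and -0.31 to 0.07 between the tumours. Signals under the floor limit what can be said of Cxcl9 and Cxcl10 in all groups, of Ccl5 in the tumours and of Ccl2 in WT.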
